A study of Mus musculus with 8 samples.

Results

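The genes described here encode the nuclear subunits of the oxidative phosphorylation machinery, the respiratory chain and ATP synthase of the mitochondrial inner membrane. They were chosen by gene symbol: every listed row whose symbol names a subunit of complex I (Nduf genes), complex II (Sdh), complex III (Uqcr genes and Cyc1), complex IV (Cox4 to Cox8 genes), complex V (Atp5 genes) or cytochrome c (Cycs), and whose mean TPM, a transcript abundance scaled to gene length and library, reached 1 in its table. In the table with ginsenoside Re, 89 of 52338 rows had such a symbol and 82 reached the minimum: 37 of complex I, 4 of complex II, 9 of complex III, 14 of complex IV, 17 of complex V and Cycs. In the table with ginseng berries concentrate (GBC), 90 of 52139 rows had such a symbol and 82 reached it, with 13 of complex IV and the ATPase inhibitor Atp5if1 as a further member. By Ensembl ID, 81 genes were members in both tables.

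RNA sequencing was done on total RNA of C2C12, an immortalised line of mouse myoblasts, labelled wild type in all groups. The GBC table holds 1 library of cells given DMSO, the solvent control, and 1 of cells given GBC. The Re table holds 3 DMSO libraries and 3 libraries of cells given ginsenoside Re, a saponin of ginseng. The labels give no dose or time of treatment and do not state whether libraries came from separate cultures, so the p-values below measure only the spread between these libraries. Values are deposited log2(TPM + 1), so the read depth behind them is unknown. In the Re table Myod1, Myf5 and Des fitted the label, at 9.95 to 13.64 TPM, 30.24 to 34.17 TPM and 114.91 to 127.36 TPM. Pax7 and Myog of the same marker list were at no more than 0.13 and 0.3 TPM. In the GBC table Myod1, Myf5 and Cdh15 were listed at 0 in both libraries and Des at 1.92 and 1.59 TPM, while Thy1, a fibroblast surface marker listed at no more than 0.08 TPM in the Re table, was at 23.75 and 22.11 TPM. Other fibroblast genes, as listed, did not all go the same way against the Re table. The tables were normalised separately. Over 11558 genes the median log2 ratio of the GBC table's DMSO library to the mean DMSO level of the Re table was -1.41. A value below the Re table is thus not by itself particular to a gene. Both GBC-table libraries were lower for Col3a1 (19.77 and 39.32 TPM beside 177.8 to 271.18 TPM) and Pdgfrb (1.78 and 3.26 beside 13.37 to 16.15). Both were higher for Pdgfra (5.85 and 9.84 beside 1.85 to 3.07). For Col1a1 and Col1a2 the DMSO library, with 10.94 and 112.16 TPM, lay below the Re table (12.91 to 20.03 and 190.98 to 249.74). The GBC library lay above that range for Col1a1 (46.64) and within it for Col1a2 (228.83). The whole list of 8 summed to 174.48 and 350.08 TPM beside 399.05 to 553.37 TPM. Vcam1 of the myoblast list was at 6.05 and 7.49 TPM in the GBC table, beside 10.37 to 11.98 TPM in the Re table. Myod1, Myf5, Cdh15 and Des of the GBC table went against the label, and the libraries labelled DMSO and GBC in it are described as such. The part of this in the GBC results was not tested.

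Complex I takes electrons from NADH and complex II, which is also the succinate dehydrogenase of the citric acid cycle, takes them from succinate. Both pass them through coenzyme Q to complex III, then by cytochrome c to complex IV, which reduces oxygen. Complexes I, III and IV pump protons, and ATP synthase, complex V, lets them back through a rotating ring to make ATP. Complexes I, III, IV and V also hold subunits that the mitochondrial genome encodes, and in muscle several complex IV subunits have a separate heart and skeletal muscle isoform that replaces the common form as fibres mature.

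Promoters are printed for the genes that the comparisons below turn on. Of the 83 genes that were members in either table, 69 had an entry in the RefSeq promoter table (build GRCm38.p6), with 74 windows from 250 bases before to 50 bases after a start site. The bases before the start site are shown for Ndufs6 and Sdha, members with large differences between the DMSO and GBC libraries, and for Ndufs5 and Ndufa1, members with the smallest p between Re and DMSO. Capitals mark a match to any of the 6 motifs named below.
Ndufs6, chr13:73328483-73328732, minus strand: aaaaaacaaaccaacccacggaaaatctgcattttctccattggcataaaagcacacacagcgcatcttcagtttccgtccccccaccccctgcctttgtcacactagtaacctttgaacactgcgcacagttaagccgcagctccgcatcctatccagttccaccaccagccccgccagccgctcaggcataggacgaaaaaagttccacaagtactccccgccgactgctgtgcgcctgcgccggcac
Sdha, chr13:74350241-74350490, minus strand: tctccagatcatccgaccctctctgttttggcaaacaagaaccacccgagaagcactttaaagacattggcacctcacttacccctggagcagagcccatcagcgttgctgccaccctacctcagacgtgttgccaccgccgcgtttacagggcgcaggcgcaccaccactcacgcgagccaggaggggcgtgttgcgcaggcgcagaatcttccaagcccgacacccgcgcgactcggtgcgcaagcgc
Ndufs5, chr4:123718187-123718436, minus strand: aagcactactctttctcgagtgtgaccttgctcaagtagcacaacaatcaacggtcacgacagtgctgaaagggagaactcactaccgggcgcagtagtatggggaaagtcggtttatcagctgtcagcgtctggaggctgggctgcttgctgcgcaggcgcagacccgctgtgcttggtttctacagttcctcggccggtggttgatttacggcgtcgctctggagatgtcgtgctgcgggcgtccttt
Ndufa1, chrX:37191239-37191488, minus strand: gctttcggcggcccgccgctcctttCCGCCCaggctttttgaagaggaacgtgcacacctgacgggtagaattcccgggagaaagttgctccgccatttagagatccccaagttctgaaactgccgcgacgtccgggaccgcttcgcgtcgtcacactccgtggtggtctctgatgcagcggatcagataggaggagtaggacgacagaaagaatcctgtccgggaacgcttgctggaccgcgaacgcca

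Motifs of 6 transcription factors known to act on respiratory genes or on many promoters were searched on both strands of the windows. The YY1 motif AAGATGGCG was in 7 of 74 member windows (9.46%), beside 1.40% of all 32851 windows and 3.22% of the 11463 windows of genes that reached 1 TPM in the Re table. The NRF1 motif TGCGCATGC was in 5 (6.76%), beside 1.52% and 3.18%. The CREB motif TGACGTCA was in 5 (6.76%), beside 1.79% and 3.17%, the ERR motif TCAAGGTCA in 2 (2.70%), beside 0.423% and 0.227%, and the GABP motif ACCGGAAGT in 1 (1.35%), beside 1.10% and 2.46%. The SP1 motif GGGCGG was in 31 (41.9%), beside 35.7% and 64.0%. The NRF1 motif can overlap its own reverse complement, and Uqcrc1 held such overlapping matches on both strands. The 7 stretches of 29 bases around the YY1 motif are shown because of where they lie, with the motif in capitals.
Ndufs6: agggtcaccggcAAGATGGCGgcggtgct
Ndufs4: cgtttgcctacaggAAGATGGCGgcggtc
Ndufs7: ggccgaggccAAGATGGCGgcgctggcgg
Ndufa9: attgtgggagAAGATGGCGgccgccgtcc
Ndufc1: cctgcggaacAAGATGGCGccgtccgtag
Atp5j2: ccaggacttcAAGATGGCGtcactcggtg
Atp5j: aagtgtaggaAAGATGGCGgagtcttagc
All 7 matches lay on the strand of the gene. In Ndufs6, Ndufs4, Ndufs7, Ndufa9, Ndufc1 and Atp5j2 the motif began 23 to 36 bases after the start site, and the ATG within it was the start codon annotated in GENCODE M21, so the match overlapped the start of the coding sequence. In Atp5j, the coupling factor of the peripheral stalk, it lay before the start site. The 5 genes with the NRF1 motif are shown with the motif in capitals.
Ndufa6: ccgcggtagaGCATGCGCAttgcagagcc
Ndufa8: cgctggagacGCATGCGCAgatggtaccg
Uqcrc1: gactccgctcTGCGCATGCgcagcgcggc
Atp5l: aaccaataacGCATGCGCAtttcccccac
Atp5g2: ctccggccgcGCATGCGCAgagccttccc
The motif began 8, 40, 83 and 240 bases before the start site in Ndufa8, Atp5g2, Ndufa6 and Atp5l, and after it in Uqcrc1. These matches are descriptions of the letters and not of binding.

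Subunit genes were expressed at high levels, which differed widely between the genes of a complex. The median member was at 116 TPM in the Re table, where the median of all 11967 genes at 1 TPM or more was 14.1 TPM. The corresponding levels in the GBC table were 61.3 and 6.86 TPM. In the Re table the members together made up 1.82% to 2.09% of the listed TPM, and 1.87% and 1.66% in the DMSO and GBC libraries. In bulk RNA, fewer cells of a type and less RNA per cell cannot be told apart.

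In complex I of the Re table, mean levels over the 6 libraries ran from 31.0 TPM for Ndufb4, an accessory subunit of the membrane arm, to 249 TPM for Ndufa12, an accessory subunit of the NADH-binding module, with a median of 78.4 TPM. In complex II, Sdhc and Sdhb were lowest and highest, at 53.3 and 104 TPM, with a median of 80.5 TPM. In complex III the Rieske iron-sulphur protein Uqcrfs1 was lowest at 58.4 TPM and the hinge protein Uqcrh highest at 324 TPM, with a median of 135 TPM. Leaving aside Cox6c2 and Cox7b2, which were under 5 TPM in every library, the 12 members of complex IV ran from 112 TPM for Cox7a2l to 495 TPM for Cox6c, with a median of 267 TPM. The lowest places of Ndufb4 and Cox7a2l depend on how reads were split with near-identical copies: together with these copies the means were 102 and 324 TPM, above the medians of their complexes. In complex V, Atp5e, the epsilon subunit, was lowest at 111 TPM and Atp5b, the catalytic beta subunit, highest at 1273 TPM, with a median of 219 TPM.

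Atp5b stood above every other member in each library of the Re table. Its level was 1324, 1013.53 and 1289.91 TPM in DMSO and 1354.74, 1341.64 and 1311.22 TPM in Re. Atp5a1, which encodes the alpha subunit present in the F1 head in the same number of copies as beta, was at 352.07 to 469.34 TPM. The beta subunit gene, listed as Atp5f1b in the GBC table, was also the highest member, at 437.73 and 512.16 TPM, and the alpha gene Atp5f1a was at 116.59 and 122.36 TPM.

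**Figure D1:**
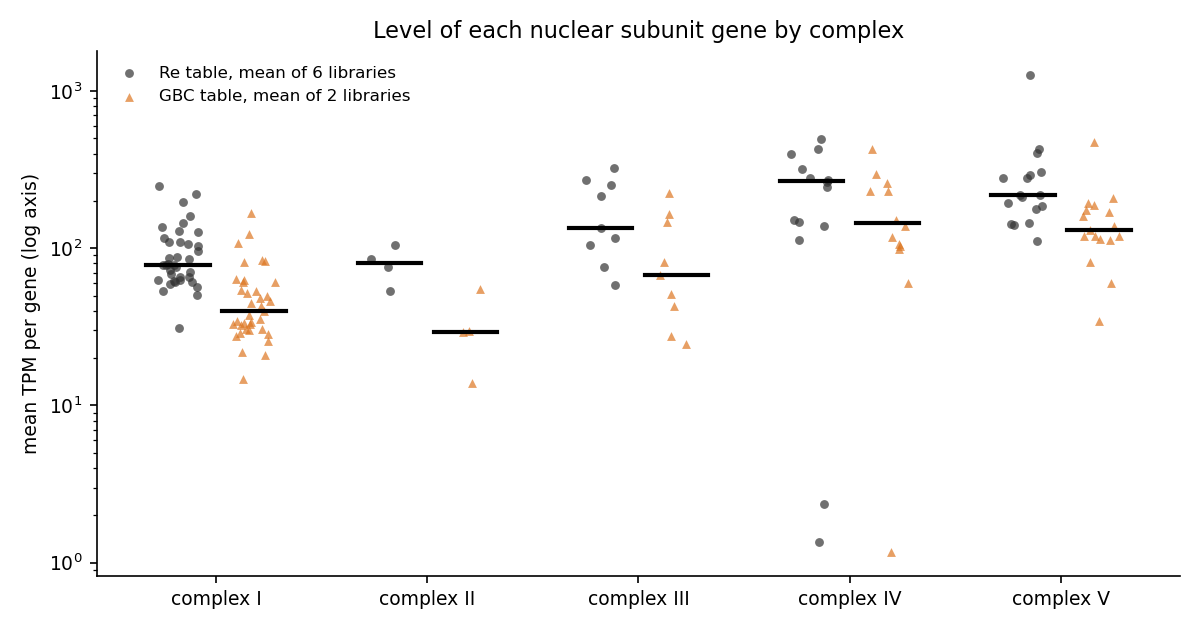
Mean TPM of each member (log axis) by complex, over the 6 libraries of the Re table (circles) and the 2 of the GBC table (triangles); bars are medians over members of at least 10 TPM. The medians of complexes IV and V lie highest in both tables, and the points near 1 TPM in complex IV are Cox6c2 and Cox7b2. Cycs and Atp5if1 are not drawn.

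The balance between complexes varied little within a table. Complex I made up 25.5% to 26.3% of the members' TPM over the 6 libraries of the Re table, complex II 2.24% to 2.47%, complex III 10.9% to 11.5%, complex IV 23.4% to 23.8% and complex V 35.8% to 36.6%. The DMSO and Re ranges overlapped for every complex. Of the members' TPM in the GBC table, complex IV held 28.6% in DMSO and 28.9% in GBC, complex I 23.9% and 24.2%, complex V 33.5% and 33.7%, complex II 1.54% and 1.75%, and complex III 11.3% and 10.2%.

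In all 8 libraries complex IV was represented by its common isoforms. Cox4i2, Cox6b2, Cox8b and Cox8c never exceeded 0.49, 0.1, 0.37 and 0 TPM, while their common counterparts Cox4i1, Cox6b1 and Cox8a were above 100 TPM in every library. The heart and skeletal muscle isoform Cox6a2 reached at most 0.57 TPM, 0.22% of the sum with Cox6a1. Cox7a1, another striated muscle isoform, reached at most 1.39 TPM, 0.872% of the sum with Cox7a2. Cox7b2 was at 0.48 to 2.48 TPM in the Re table and listed at 0 in the GBC table, at most 1.58% of the sum with Cox7b. Apart from Cox7b2 in the Re table, these genes were under the minimum of 1 TPM in both tables, as was a second row named Atp5o (Atp5po in the GBC table), listed at 0.

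**Figure D2:**
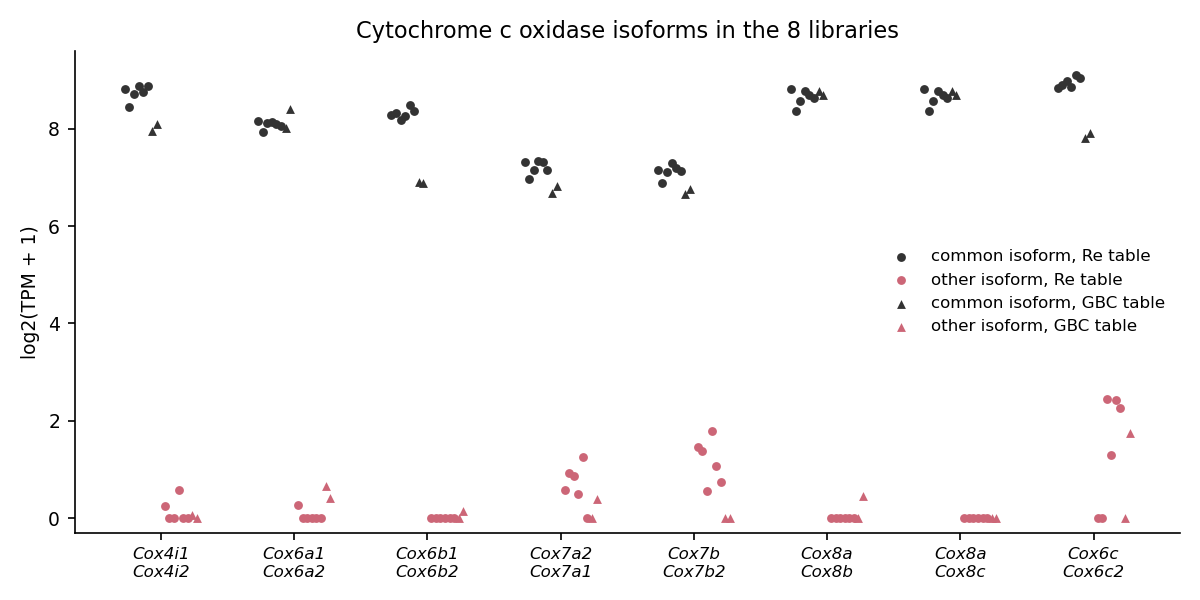
Level of each complex IV isoform as log2(TPM + 1), by library: circles are the 6 libraries of the Re table and triangles the 2 of the GBC table, black the common isoform (upper name) and red the other (lower name). The common isoforms lie far above the other in each library; the red points between 0 and 4.42 TPM in the last column are Cox6c2.

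The c subunit that forms the rotor ring of ATP synthase is encoded by 3 genes whose mature proteins are the same. In the Re table Atp5g1, Atp5g2 and Atp5g3 shared their summed TPM almost evenly, at 32.9% ± 2.32, 34.0% ± 0.593 and 33.1% ± 1.84 in DMSO and 32.6% ± 1.86, 34.7% ± 2.70 and 32.7% ± 1.20 in Re (SD, n = 3). In the GBC table, where they are listed as Atp5mc1, Atp5mc2 and Atp5mc3, the shares were 37.7%, 39.8% and 22.5% in DMSO and 40.6%, 36.2% and 23.2% in GBC. The third gene thus held a smaller share there than in any library of the Re table.

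No member passed the test between Re and DMSO. With limma, 0 of the 82 members had an adjusted p under 0.05, as did 0% of the 11967 genes tested, and the smallest adjusted p of a member was 0.687. The genes Ndufs5, Ndufa1, Uqcrh and Atp5c1, 4 members or 4.88%, had an unadjusted limma p under 0.05 and all were higher in Re. Among all genes 5.65% were higher at that level, so the members' share was near the background. All 3 Re libraries lay above all 3 DMSO libraries for 10 members, 12.2%, beside 13.7% of all genes, and below them for 0, beside 1.27%.

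Ndufs5 (ENSMUSG00000028648), an accessory subunit of the complex I membrane arm, was at 117.24, 112.39 and 118.87 TPM in DMSO and 137.69, 147.96 and 142.61 TPM in Re. The groups did not overlap, and the DMSO libraries lay within 7 TPM of each other. The difference was 0.29 on the log2(TPM + 1) scale, with a 95% confidence interval of 0.12 to 0.47 and an adjusted p of 0.687 in limma. After median-of-ratios scaling, which sets the median gene level across libraries, Ndufs5 was the only member whose groups still did not overlap, 1.22% of members beside 5.28% of all genes. A processed copy, BC002163, is 99.4% identical to it over 319 bases and stood at 0.89 to 7.13 TPM in these libraries.

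Ndufa1 (ENSMUSG00000016427), an X-linked accessory subunit, was at 60.65, 69.51 and 55.06 TPM in DMSO and 73.07, 88.79 and 74.06 TPM in Re. The highest DMSO library lay just under the lowest Re library. The difference was 0.34, with an interval of 0.07 to 0.62. Uqcrh, the hinge protein of complex III, was at 323.72, 288.18 and 276.86 TPM in DMSO and 348.81, 380.44 and 324.9 TPM in Re, a difference of 0.25. DMSO replicate 1 and Re replicate 3 differed there by less than 2 TPM. Atp5c1, the gamma subunit that turns in the F1 head, was at 207.29, 187.3 and 197.98 TPM in DMSO and 217.07, 231.94 and 225.56 TPM in Re, a difference of 0.19. The other 6 members whose groups did not overlap were Ndufb10, Ndufb3, Ndufb9, Ndufs8, Ndufa13 and Atp5pb, with differences of 0.12 to 0.16.

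By complex, the medians of the differences were 0.16 for complex I, 0.11 for complex II, 0.14 for complex III, 0.16 for complex IV and 0.16 for complex V, beside 0.11 for all genes. Members with a positive difference numbered 36 of 37, 4 of 4, 9 of 9, 14 of 14 and 16 of 17. Over all members this was 80 of 82, or 97.6%, beside 77.5% of all genes. After median-of-ratios scaling it was 57 of 82, or 69.5%, beside 50.1%, and the median member difference went from 0.15 to 0.04. Then 25 of 37 members of complex I, 2 of 4 of complex II, 5 of 9 of complex III, 10 of 14 of complex IV and 14 of 17 of complex V were positive. Genes of like level were close to all genes here: the 1936 genes averaging 50 TPM or more had a median difference of 0.11, and 85.2% of them were positive. The level cuts in this and the GBC comparison were chosen after the values were seen.

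**Figure D3:**
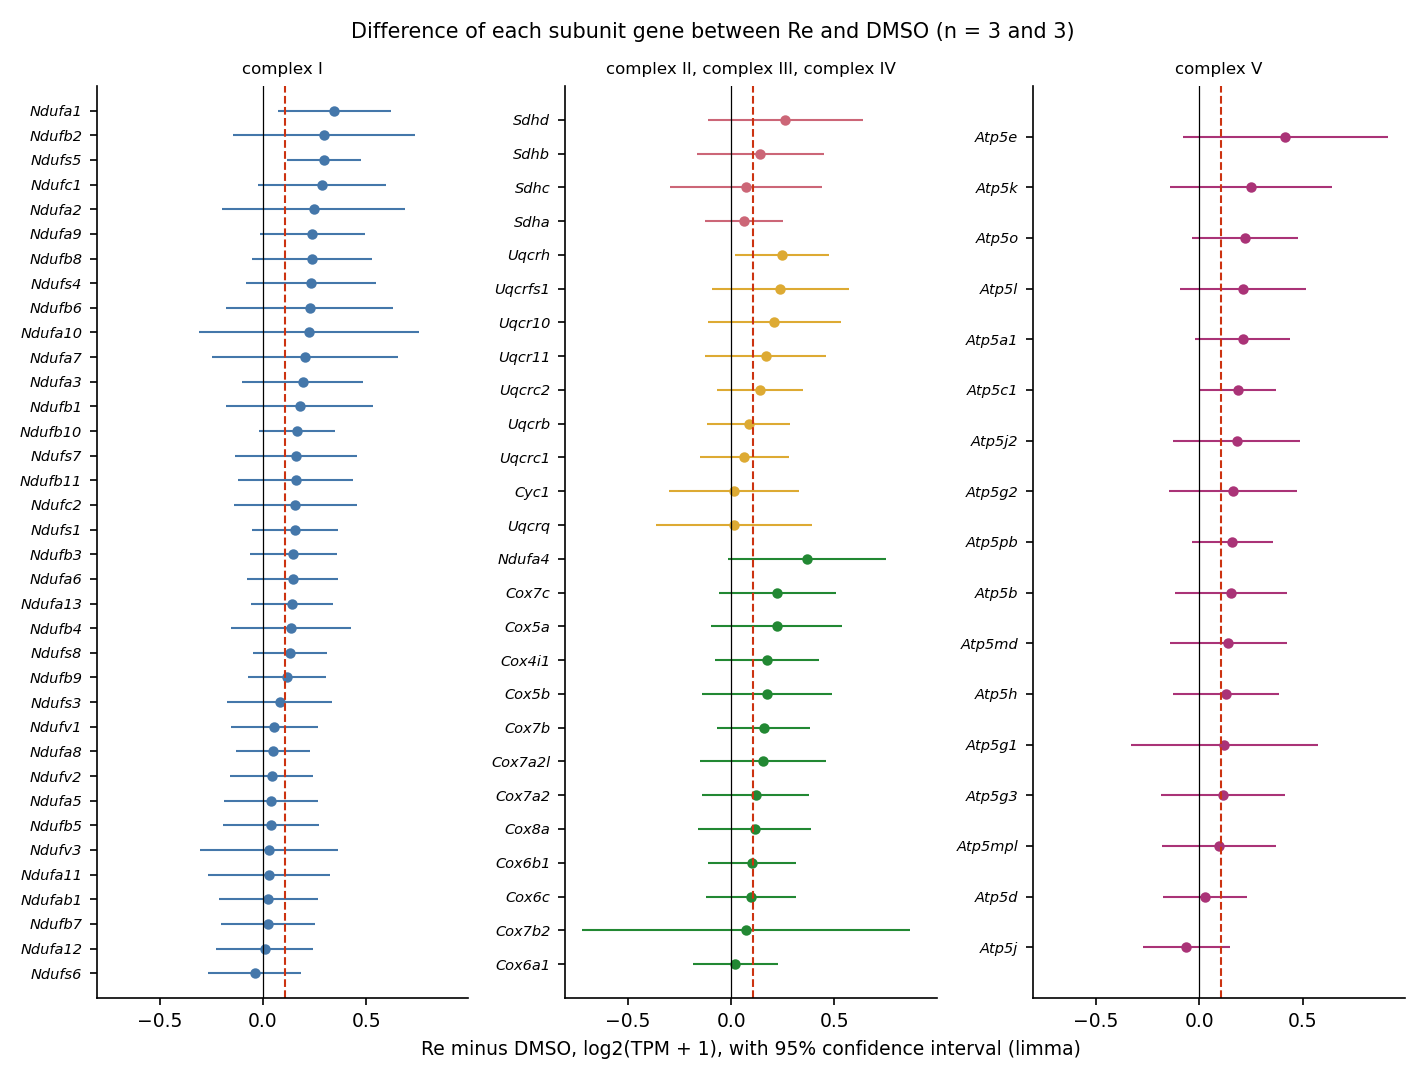
Difference of each member between Re and DMSO in log2(TPM + 1), with the 95% confidence interval from limma, by complex; the dashed line is the median of all genes, 0.11, and the solid line is 0. Cox6c2 (1.19, interval up to 2.68), Cycs and 1 member of complex I are left out. All intervals shown include 0 except those of Ndufs5, Ndufa1, Uqcrh and Atp5c1.

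In complex I, the 10 genes of the NADH-binding module had a median of 0.10 and included Ndufs6, a zinc-binding accessory subunit, the only complex I member with a negative difference. Ndufs6 was at 59.81, 60.17 and 71.47 TPM in DMSO and 60.21, 61.17 and 64.19 TPM in Re, a difference of -0.04, and its sign rested on DMSO replicate 3. The 11 Ndufb genes of the membrane arm were all positive, from 0.02 to 0.30.

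In complex II, Sdhd, a membrane anchor, was at 96.01, 59.82 and 78.11 TPM in DMSO and 99.86, 91.5 and 85.38 TPM in Re, a difference of 0.26, which was 0.09 without DMSO replicate 2 and 0.42 without DMSO replicate 1. Sdhb, the iron-sulphur subunit, was at 115.74, 80.14 and 102.93 TPM and 112.5, 109 and 104.9 TPM, a difference of 0.14 whose sign turned without DMSO replicate 2, at -0.01. Sdha, the flavoprotein, was at 73.31, 75.16 and 74.11 TPM and 74.36, 75.49 and 82.8 TPM, a difference of 0.06 that was -0.05 after median-of-ratios scaling. For Sdhd and Sdhb the low value was that of DMSO replicate 2, while Sdha did not differ between the DMSO libraries by more than 2 TPM. In complex III, Uqcrfs1 was at 66.56, 44.8 and 50.25 TPM in DMSO and 66.45, 62.04 and 60.22 TPM in Re, a difference of 0.24 with overlapping groups, which was 0.12 without DMSO replicate 2 and 0.40 without DMSO replicate 1. Uqcrq, a small membrane subunit, was at 109.56, 94.37 and 144.35 TPM and 132.39, 112.6 and 102.71 TPM, a difference of 0.01 that was -0.10 after that scaling.

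In complex IV, Ndufa4, first assigned to complex I and now counted with complex IV, was at 292.33, 186.31 and 254.76 TPM in DMSO and 342.7, 315.05 and 277.53 TPM in Re, a difference of 0.37 with overlapping groups, which was 0.19 without DMSO replicate 2. Cox6a1 was at 244.6 to 285.27 TPM in DMSO and 263.55 to 281.16 TPM in Re, a difference of 0.02 that was -0.09 after that scaling. Cox6c2 was listed at 0, 0 and 4.42 TPM in DMSO and at 1.47, 4.39 and 3.82 TPM in Re, a difference of 1.19, which was 2.001 without DMSO replicate 3 and 0.78 without DMSO replicate 1 or 2. It is annotated as a pseudogene in GENCODE M21 and is 97.0% identical to Cox6c over 231 bases, and Cox6c was at 455.72 to 544.8 TPM, so its reads may not be told apart from those of Cox6c. In complex V, Atp5a1 was at 435.17, 352.07 and 401.03 TPM in DMSO and 467.68, 469.34 and 433.4 TPM in Re, a difference of 0.21 with overlapping groups, which was 0.13 without DMSO replicate 2. The F1 head genes had differences of 0.03 to 0.42, the c-ring genes 0.12 to 0.16, and the small membrane subunits 0.10 to 0.25. Atp5j of the peripheral stalk was at 153.35, 141.92 and 142.36 TPM in DMSO and 149.83, 127.18 and 142.37 TPM in Re, a difference of -0.06, and without Re replicate 2 it was 0.00.

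One library stood low across the members, as it did across all genes. The listed TPM summed to 716589, 642180 and 700100 in DMSO replicates 1, 2 and 3. In Re replicates 1, 2 and 3 the sums were 704657, 707385 and 743269. DMSO replicate 2 was the lowest of the 6 libraries for 59 of 82 members (72.0%), beside 51.0% of all genes, and the highest for 0. Relative to each gene's mean over the libraries, the median member was at 0.07, -0.24 and -0.05 in DMSO replicates 1, 2 and 3 and at 0.11, 0.10 and 0.02 in Re replicates 1, 2 and 3, on the log2 scale. The median of all genes was at 0.03, -0.15 and -0.03 in DMSO and 0.02, 0.04 and 0.10 in Re. DMSO replicate 2 was lowest for 26 of 37 members of complex I, 2 of 4 of complex II, 8 of 9 of complex III, 10 of 14 of complex IV and 13 of 17 of complex V. Members outside this pattern included Ndufa1, Uqcrh, Sdha, Ndufs6, Cox6c, Atp5h, Atp5md and Cycs. Without DMSO replicate 2 the median member difference was 0.07 and 67 of 82 were positive (81.7%), with a median of 0.05 for all genes, of which 65.8% were positive. Without DMSO replicate 1 it was 0.22 and all Re libraries lay above the remaining DMSO libraries for 47 members (57.3%), beside a median of 0.15 and 34.0% of all genes. With the sums of all 6 libraries set equal, 64 of 82 members were positive (78.0%), beside 63.7% of all genes. This share was added after the data were seen. The part of DMSO replicate 2 in the members' differences was otherwise not tested.

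**Figure D4:**
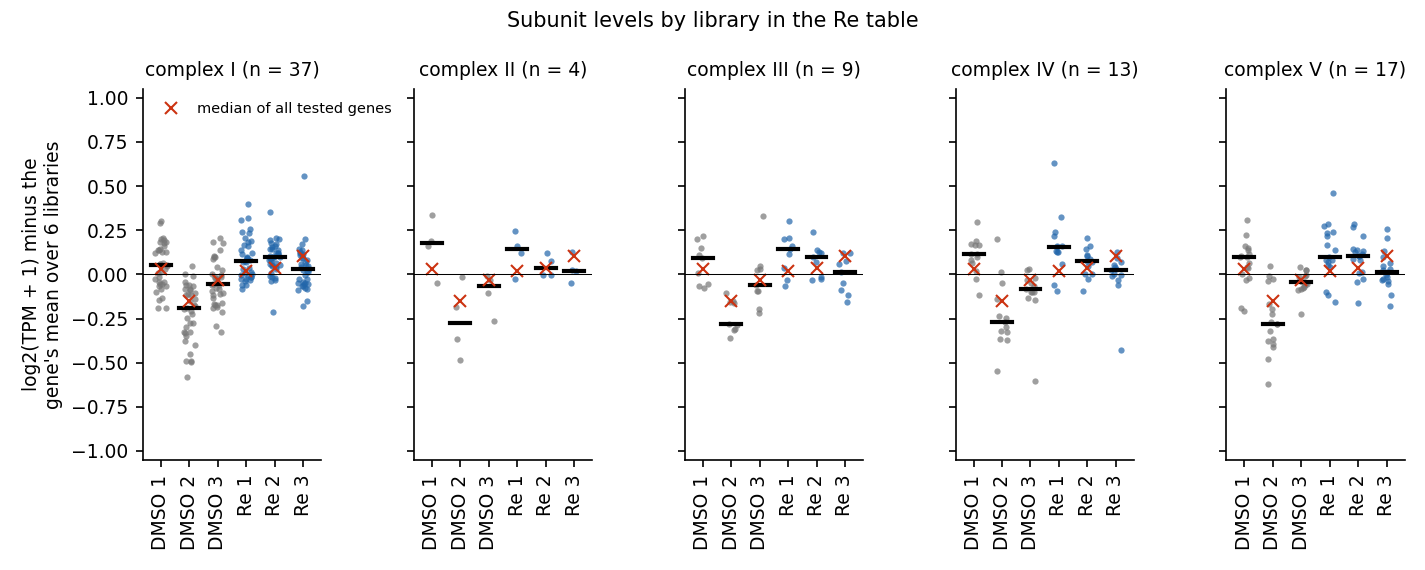
Level of each member by library of the Re table, as log2(TPM + 1) minus the gene's mean over the 6 libraries, by complex; bars are medians over members and crosses the median of all genes. The median of DMSO replicate 2 lies lowest in each complex; Cox6c2 and Cycs are left out.

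The spread between libraries was larger in DMSO than in Re for members and for genes in general. The median coefficient of variation of a member was 12.7% over the DMSO libraries and 7.42% over the Re libraries, beside 12.7% and 9.89% for all genes. Above 10 TPM it was 12.6% and 7.25% for members, beside 10.7% and 7.86% for genes.

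Between the DMSO and GBC libraries most subunit levels lay close together, and 4 members passed a difference of 1 on the log2(TPM + 1) scale. With 1 library a group there is no test and no replicate check. Cox6c2, Ndufs6 and Sdha were at least 1 higher in the GBC library, 3.66% of members beside 4.35% of the 10989 genes that reached 1 TPM. Cox6c2, listed at 0 in DMSO, reached that minimum only through the GBC library, so its direction was fixed by the minimum. Uqcrq was at least 1 lower, 1.22% of members beside 0.4% of genes. At a minimum of 5 TPM, which leaves out Cox6c2, 3 members passed a difference of 1 (3.70%, beside 5.21% of genes). Among markers of other cell types, the summed fibroblast list was higher in the GBC library, as given above, with 5 of its 6 genes over 1 TPM higher and 2 of them by at least 1. Endothelial, immune and epithelial lists summed to at most 0.21, 0.83 and 0.79 TPM. The part of these markers in the differences was not tested.

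Sdha, the flavoprotein that oxidises succinate in complex II, was at 8.16 TPM in the DMSO library and 19.77 TPM in the GBC library, a difference of 1.18. Its partners did not share that size: Sdhb was at 24.52 and 33.86 TPM (0.45), Sdhc at 28.6 and 30.79 TPM (0.10) and Sdhd at 54.62 and 54.65 TPM (0.00). Both Sdha values lay far below the 73.31 to 82.8 TPM of the Re table. Most members were lower in this DMSO library than in DMSO of the Re table, with a median log2 ratio of -0.89. Scaled by median of ratios the Sdha difference between the DMSO and GBC libraries was 0.75.

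Ndufs6 was at 11.35 TPM in the DMSO library and 30.25 TPM in the GBC library, a difference of 1.34, or 0.90 after that scaling. It too lay below its range in the Re table, 59.81 to 71.47 TPM, and most members were lower in this DMSO library than in DMSO of the Re table. Its copy Ndufs6b, 96.6% identical over 348 bases, was listed at 0 in both. The next members of complex I were Ndufb7 at 32.43 and 57.75 TPM (0.81), Ndufv3 at 32.14 and 47.33 TPM (0.54) and Ndufa5 at 66.96 and 96.37 TPM (0.52). At the other end Ndufb5 was at 68.88 and 53.68 TPM, a difference of -0.35.

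Uqcrq was at 92.22 TPM in the DMSO library and 42.79 TPM in the GBC library, a difference of -1.09. The GBC library lay below the 94.37 to 144.35 TPM of the Re table, and the DMSO library just below it. No copy was found for this gene in the annotated transcripts. The other 8 members of complex III lay between -0.09 for Uqcr10 and 0.22 for Uqcrb, which was at 75.63 and 88.4 TPM. Cox6c2 was listed at 0 in DMSO and at 2.34 TPM in GBC, and the limit on its reads given above holds here. In complex IV the remaining members lay between -0.08 for Cox7a2l and 0.37 for Cox6a1, which was at 258.88 and 335.67 TPM. In complex V, Atp5f1d, the delta subunit of the F1 head, stood highest with 49.68 and 70.48 TPM (0.50), and Atp5mg, a small membrane subunit, lowest with 183.83 and 157.57 TPM (-0.22). Atp5if1, which inhibits ATP hydrolysis by the enzyme, was at 64.41 and 64.02 TPM. Its gene is named Atpif1 in the Re table, where DMSO libraries held 259 ± 16.2 TPM and Re libraries 285 ± 32.4 TPM (SD, n = 3).

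**Figure D5:**
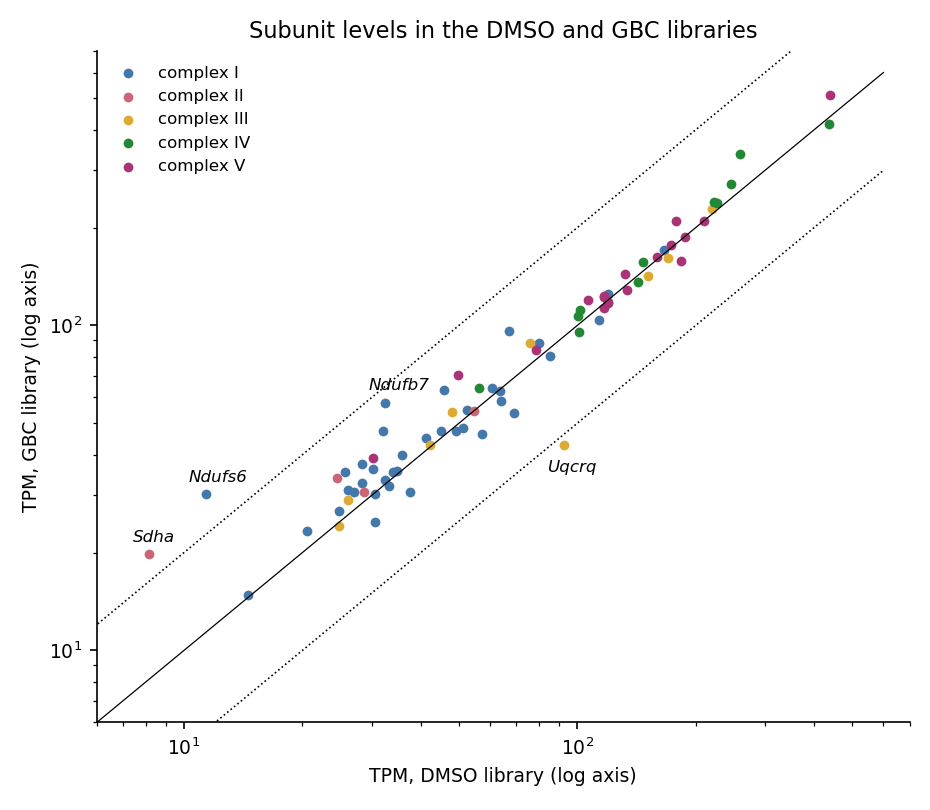
TPM of each member in the DMSO library and the GBC library (both log axes), coloured by complex; the solid line is equality and the dotted lines a factor of 2 either way in TPM. Sdha and Ndufs6 lie above the upper dotted line and Uqcrq below the lower. Cox6c2, at 0 in DMSO, is not drawn, and neither are Cycs and Atp5if1.

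How the members compared with genes in general between these 2 libraries depended on the scaling. As deposited, the median member difference was 0.07 and that of all genes 0.32, and 8.54% of members and 30.4% of genes differed by at least 0.5 either way. By direction, 55 of 82 members (67.1%) were higher in GBC, beside 88.8% of all genes. By complex the medians were 0.07, 0.28, 0.02, 0.10 and 0.07 for complexes I to V, and 25 of 37, 4 of 4, 5 of 9, 9 of 13 and 11 of 17 members were higher. The general shift depended on the level of the gene: it was 0.21 over the 2103 genes averaging 20 TPM or more, 0.15 over the 788 at 50 TPM or more and 0.10 over the 426 at 100 TPM or more. The members of at least 50 TPM, 49 in number, had a median of 0.05, and 59.2% of them were higher, beside 73.7% of those 788 genes. At 100 TPM or more the median of 30 members was 0.04, and 18 of them were higher, beside 67.4% of the 426 genes. After median-of-ratios scaling 7 of 82 members were higher, 8.54%, beside 42.0% of all genes. The median was then -0.39 for members and -0.07 for all genes, and 26.8% of members and 13.1% of genes differed by at least 0.5. With the sums of both libraries set equal, 15 of 82 members were higher in GBC (18.3%), beside 65.1% of all genes. The medians were then -0.18 for members and 0.13 for all genes.

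Between tables the members' order was similar, although the tables were normalised separately and the values are set side by side only as a description. Across 80 members of both tables above 0, Pearson's r between log2 levels in the DMSO library of the GBC table and the mean DMSO level of the Re table was 0.82 and Spearman's rho 0.80, and these points share gene lengths and the counting method. The median log2 ratio of the first to the second was -0.89 for members and -1.41 for 11558 genes. Sdha was the farthest below, at -3.18, followed by Ndufab1, the mitochondrial acyl carrier protein, at -2.61, Ndufs6 at -2.49 and Atp5j at -2.27. Above 0 were Atp5j2 at 0.33, Atp5e at 0.32, Ndufb5 at 0.31, Cox8a at 0.18 and Ndufv1 at 0.16.

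Genes that serve the same machinery gave these values. Of 52 assembly factors, which help build the complexes without staying in them, 51 were tested between Re and DMSO and 0 passed the adjusted threshold in limma. Unadjusted, 7 had a limma p under 0.05. This was 13.7% of them, beside 6.23% of all genes. Their median difference was 0.10, and 38 were positive (74.5%, beside 77.5% of all genes). The groups did not overlap upwards for 9 (17.6%, beside 13.7%) and downwards for 2 of the 51, beside 1.27% of all genes. Ndufaf8, an assembly factor of complex I, was at 11.79, 9.01 and 7.7 TPM in DMSO and 13.58, 20.74 and 14.27 TPM in Re, a difference of 0.71. Atpaf1, which chaperones the beta subunit of ATP synthase, was at 11.67, 15.06 and 15.24 TPM in DMSO and 10.35, 10.7 and 10.35 TPM in Re, a difference of -0.38. Both were named after their values were seen, and both had an adjusted p of 0.687 in limma. Between the DMSO and GBC libraries the median of 50 assembly factors was 0.26 and 41 were higher in GBC, 82% beside 88.8% of all genes. Cox17, the copper chaperone of complex IV, was at 6.28 and 22.13 TPM in the DMSO and GBC libraries (1.67), beside 80.79 to 109.27 TPM in the Re table, and Uqcc3, an assembly factor of complex III, at 4.71 and 11.33 TPM (1.11).

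Of 13 genes of coenzyme Q synthesis, 12 were tested between Re and DMSO, and 10 were positive (83.3%, beside 77.5% of all genes) with a median of 0.16. The groups did not overlap upwards for 3 (25%, beside 13.7%) and downwards for 1, beside 1.27%. Unadjusted, 1 had a limma p under 0.05 (8.33%, beside 6.23%), and 0 passed the adjusted threshold. Between the DMSO and GBC libraries 9 of 12 were higher in GBC (75%, beside 88.8%), with a median of 0.09. The 13 subunits encoded by the mitochondrial genome had a median difference of 0.06 in Re, and 7 were positive (53.8%, beside 77.5% of all genes). The groups overlapped for all 13, while 13.7% of all genes did not overlap upwards and 1.27% downwards. Unadjusted, 2 had a limma p under 0.05 (15.4%, beside 6.23%), and 0 passed the adjusted threshold. These were mt-Co2, listed at 0 TPM in each DMSO library and at 39.85, 0 and 111.76 TPM in Re, and mt-Nd4l. The latter was at 125.31, 66.32 and 118.5 TPM in DMSO and 236.56, 100.88 and 290.48 TPM in Re. Of the 13 mitochondrially encoded genes, 12 were higher in the GBC than in its DMSO library (92.3%, beside 88.8% of all genes), with a median of 1.30. By at least 1, 9 of the 13 were higher, beside 4.35% of all genes. The nuclear members had a median of 0.07 between the same libraries. For example mt-Nd4 of complex I was at 139.48 and 423.99 TPM and mt-Cytb of complex III at 529.94 and 1304.77 TPM, and mt-Co3 went the other way, at 638.05 and 369.68 TPM. The level of mt-Co3 varied widely within a group of the Re table, at 20.2, 15.19 and 509.04 TPM in DMSO.

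Near-identical copies touch some of these levels. Transcripts of another gene at least 95% identical over at least 100 bases, covering at least 50% of either transcript, were found for 27 of 83 members. The copies together exceeded 10% of the member's own TPM for 5 members in the Re table and for 6 in the GBC table. For Cox7a2l the copy Gm6969, identical over 342 bases, stood at 189% of the gene's mean TPM in the Re table, and for Ndufb4 the copies, chiefly Ndufb4c, at 230%. For Cycs the copies stood at 38.3% and for Ndufa12 at 18.3%. Ndufs5 differed between tables: its copy stood at 2.81% of the gene in the Re table and at 91.2% and 86.2% in the DMSO and GBC libraries. How the reads of such a gene were split between it and its copies depends on the authors' counting, so the levels of these members are uncertain.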

How the data were processed

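RNA of 8 libraries was sequenced, and the authors deposited log2(TPM + 1) per Ensembl gene in 2 tables. Tools named in the submitters' processing notes are STAR and RSEM, with no version, and the builds are GRCh38 and GRCm39, without saying which served which step. TPM keeps no read depth, so no count model, counting interval or detection floor could be given. Groups follow the labels, and no column was left unused.

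The members, gene lists and motifs were chosen with earlier results of these data known. For Re against DMSO, limma 3.58.1 (R 4.3.3, lmFit and eBayes with trend, two-sided) was fitted to log2(TPM + 1), a pseudocount of 1, over 11967 genes that averaged 1 TPM or more, with Benjamini-Hochberg adjustment over all of them and a threshold of 0.05. The limma step was tested on simulated data. Differences on this scale understate the change of low genes. For GBC, with 1 library a group, members at a difference of at least 1 were counted. Tests were made within a table. Named members were, per complex, the highest and lowest by mean TPM, for Re the 2 with the smallest p and the lowest difference, for GBC each past a difference of 1 and the highest and lowest, and the isoform pairs; others named for their values were chosen after these were seen. Ndufa4 was counted with complex IV. Older symbols are used for 16 ATP synthase subunits in the Re table, and members were matched by Ensembl ID. Copies were found with BLAST 2.17.0 among GENCODE M21 transcripts. Other steps used Python 3.11.15 with numpy 2.4.6 and pandas 2.3.3, and figures matplotlib 3.10.9. Alternatives were other pseudocounts, filters and scalings, untrended or robust limma variances, a replicate block, another size rule and leaving out each library. RefSeq promoters are on GRCm38.p6 and not GRCm39, so their coordinates are RefSeq's. The values of 1 member of complex I are not reported here, though it is in the counts.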

Additional observations from a re-analysis of the deposited data

How the results depend on the processing

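Under every alternative run for Re, 0 members passed the adjusted threshold in limma, at a smallest adjusted p among members of 0.354 to 0.963. The median member difference kept its sign, from 0.04 after median-of-ratios scaling to 0.22 without DMSO replicate 1, and was lowest among the settings that leave out 1 library at 0.07, without DMSO replicate 2. Members at an unadjusted p under 0.05 numbered 4 as reported (4.88%, beside 6.23% of all genes), 26 without DMSO replicate 1 (31.7%, beside 13.8%) and 1 after median-of-ratios scaling (1.22%, beside 4.74%). Whether replicate numbers pair the libraries could not be decided from so few values. Deviations of same-numbered libraries correlated at 0.16, 0.08 and 0.02, beside -0.17 to 0.09 for differently numbered libraries. With the replicate number as a block in limma, 0 members were called and the median stayed at 0.15. In that fit 7 members had an unadjusted limma p under 0.05 (8.54%, beside 6.77% of all genes). The signs of small differences turned. Sdha was at -0.05132 with median-of-ratios scaling, -0.05099 with quantile normalization, -0.00491 with equal sums and -0.02944 with mitochondrially encoded genes left out. Uqcrq was at -0.1011, -0.08913, -0.0546 and -0.07925 in the same order, and Cox6a1 at -0.09343, -0.05616, -0.04664 and -0.07132. Leaving out each library in turn, Uqcrq ranged from -0.1248 without DMSO replicate 2 to 0.1792 without DMSO replicate 3 and was also below 0 without DMSO replicate 1 (-0.01818) or Re replicate 1 (-0.08706). Cox6a1 ranged from -0.04505 (DMSO replicate 2 out) to 0.06548 and was at -0.004174 with Re replicate 1 out. Ndufs6 ranged from -0.08356 to 0.04298 (DMSO replicate 3 out), Sdhb from -0.005156 (DMSO replicate 2 out) to 0.2573 and Atp5j from -0.1147 to 0.002648 (Re replicate 2 out). For GBC the count of 4 members past a difference of 1 (4.88%, beside 4.75% of all genes) was 2 after median-of-ratios scaling (2.44%, beside 1.72%), and 7 passed a difference of 0.5 (8.54%, beside 30.4%). The median GBC difference of members was -0.3943 after median-of-ratios scaling, -0.1538 after quantile normalization and -0.1774 with equal sums. The share of members higher in Re, 97.6% beside 77.5% of all genes, was 69.5% beside 50.1% after median-of-ratios scaling and 74.4% beside 57.03% with mitochondrially encoded genes left out; these shares were added after seeing the data. The cause of these shifts was not tested. The depth behind low values such as those of Cox6c2 is unknown.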
